A study of Bos indicus with 12 samples.

Results

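HK2 and GPI encode the enzymes of 2 successive steps of glycolysis, and they are 2 of the 24616 gene IDs in the deposited counts. They were chosen by their measured counts, because their means lay in opposite directions between ECP and CON endometrium. The levels of the treatments are therefore given below as a description with no test. GPI is the gene ID ENSBTAG00000006396. HK2 is ENSBTAG00000013108, a row that the study names with both HK2 and a second locus symbol, LOC614107, so reads of another locus may be included in it. Both passed the filter on low and variable counts together with 14814 gene IDs in all.

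The data were RNA-seq read counts of endometrium collected by transcervical biopsy on D 6, counted from GnRH and timed AI, in 12 multiparous suckled Nelore (Bos indicus) cows that had no CL at the start of synchronization. All 12 cows received estradiol benzoate with an intravaginal P4 insert, cloprostenol at insert removal, and then buserelin and AI. At insert removal 6 cows received 1 mg of ECP (estradiol cypionate, a long-acting estradiol ester) and 6 cows received none (CON). Every ECP cow taken for sequencing had shown estrus and no CON cow had, so treatment and estrus cannot be told apart. Pregnancy was later diagnosed in 3 cows of each group and not in the other 3. Each library came from a different cow, and the total count was 8637917 to 15015055 per cow, with the fewest in the ECP cow E1010. The study's read table gives the share of mapped reads of each library. A boundary of 90%, set here and not by the study, puts 6 libraries below it and 6 above it, 3 ECP and 3 CON in each (hereafter lower and higher mapping libraries). A biopsy holds several cell types, and fewer cells of a type cannot be told apart from less RNA per cell.

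Hexokinases phosphorylate glucose that has entered the cell to glucose 6-phosphate, which keeps it in the cell. HK2 is the hexokinase isoform best known from skeletal muscle, heart and adipose tissue, where insulin raises its expression, and it can bind to the outer mitochondrial membrane. GPI, glucose 6-phosphate isomerase, converts glucose 6-phosphate to fructose 6-phosphate in a reversible reaction, and its protein is also found outside the cell, where it has been described as a cytokine. Glucose 6-phosphate is a branch point, from which carbon can go down glycolysis, into glycogen or into the pentose phosphate pathway. In the bovine uterus the endometrium supplies glucose to the lumen, in which the early embryo lives before attachment.

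HK2 was a gene of low counts with a large spread between cows. Levels are given as normalized counts, which are raw counts divided by the DESeq2 size factor of the library. In the CON cows HK2 was 27.3 in E0819, 38.9 in B1042, 64.0 in E0406, 70.3 in X228, 70.5 in E0040 and 112 in 1814. In the ECP cows it was 86.9 in C317, 90.7 in X156, 124 in D160, 144 in B0646, 184 in E1010 and 215 in E0952. Thus 4 of the 6 ECP cows lay above every CON cow, and the CON cow 1814 lay above the lowest ECP cows, C317 and X156. The mean of ECP, 140.7 ± 51.0, was 2.20-fold that of CON, 63.9 ± 29.7 (SD, n = 6 each). In the edgeR fit the log2 fold change of ECP over CON was 1.14 (standard error 0.32), which was larger in size than that of 99.4% of the genes. With a cow left out it ranged from 0.98 without E0952 to 1.38 without 1814. Of all genes edgeR called 0 (0%) between ECP and CON at an adjusted p of 0.10, with 1295 at an unadjusted p under 0.05, limma voom called 0, and DESeq2 called 103 (0.695%).

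The differences between cows in HK2 were larger than counting error. The raw counts were 28 to 204 per cow, and the 95% Poisson interval (exact, for counting error only) of the normalized count was 18.1 to 39.4 in E0819 and 186.3 to 246.4 in E0952. Counting error accounted for 7.37% of the variance between CON cows and 5.66% of that between ECP cows. The biological coefficient of variation of HK2, as estimated by edgeR, was 38.1%, where the median was 25.1% for the 1956 other genes with a mean level within 1.5-fold of it. The highest of the 12 cows had 7.87 times the HK2 of the lowest.

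GPI had its lower mean in the ECP cows, and it varied less between cows. In the CON cows GPI was 2713 normalized counts in X228, 2733 in 1814, 3083 in E0819, 3403 in B1042, 3730.3 in E0406 and 3990.5 in E0040. In the ECP cows it was 1991 in C317, 2297 in B0646, 2459 in X156, 2656 in D160, 2756 in E0952 and 2991 in E1010. Thus 4 ECP cows lay below every CON cow, while E0952 and E1010 lay among the CON cows X228, 1814 and E0819. The mean of ECP was 2525 ± 355 and that of CON 3275 ± 525.8 (SD, n = 6 each). In edgeR this was a log2 fold change of -0.37 (standard error 0.12), larger in size than that of 84.6% of the genes. It ranged from -0.42 without E1010 to -0.30 without E0040. The biological coefficient of variation was 15.9%, near the median of 14.1% for the 814 other genes of similar level, and counting error was 1.18% of the variance in CON and 2.05% in ECP. The groups overlapped for both genes, and over all genes tested 0.608% had groups that did not overlap.

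The quotient of the 2 raw counts does not depend on how the libraries were scaled. It is given as HK2 counts per 1000 GPI counts, and because the genes differ in length it compares cows and not the amounts of the 2 transcripts. In the CON cows it was 8.85 in E0819, 11.4 in B1042, 17.2 in E0406, 17.7 in E0040, 25.9 in X228 and 41.1 in 1814. In the ECP cows it was 36.9 in X156, 43.7 in C317, 46.8 in D160, 61.4 in E1010, 62.6 in B0646 and 77.9 in E0952. The groups were kept from separating by 1814 and X156 alone, since 5 ECP cows lay above every CON cow and 5 CON cows lay below every ECP cow. The exact 95% counting interval was 33.6 to 49.8 in 1814 and 29.8 to 45.1 in X156, so those 2 cows were not distinguishable at this depth. The mean of the ECP cows, 54.9 ± 15.2, was 2.70-fold that of the CON cows, 20.4 ± 11.8 (SD, n = 6 each). The direction of this difference follows from the choice of the genes, so it is a description with no test. How many other pairs of genes keep the treatments as far apart was not computed.

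**Figure D1:**
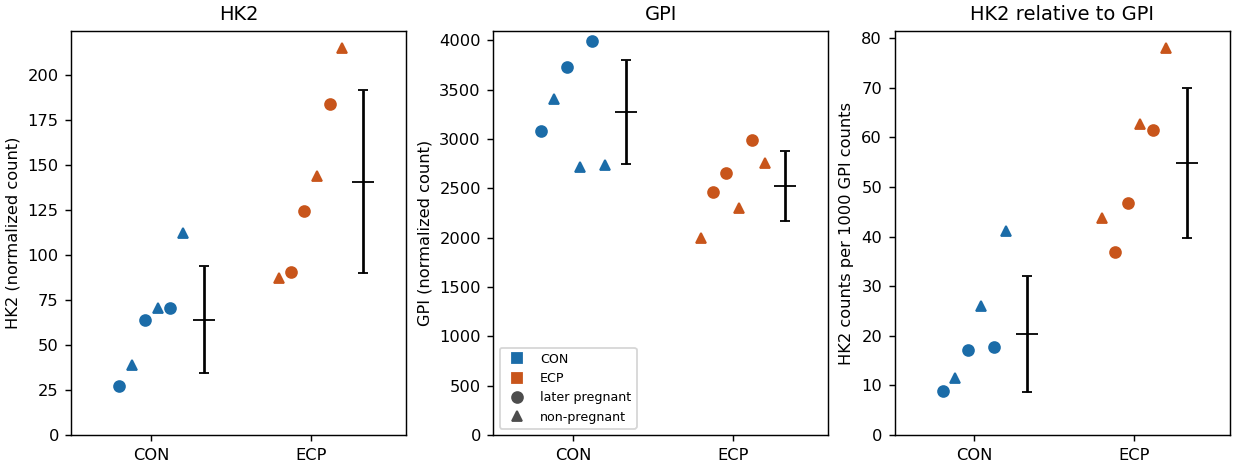
Normalized counts of HK2 (left) and GPI (middle) and HK2 counts per 1000 GPI counts (right) in each of the 6 CON and 6 ECP cows, circles for cows later pregnant and triangles for the others, with the group mean and SD as a black bar beside the points. In all 3 plots the groups overlap, by 1 CON cow (1814) and 1 ECP cow (X156) in the right plot.

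The next question was whether HK2 and GPI moved together from cow to cow, which the choice of the genes does not fix once the treatment means are taken off. No relation in either direction passed the test. Over the 12 cows as they are, log2 HK2 and log2 GPI had a Pearson r of -0.40 and a Spearman rho of -0.43, values that hold the treatment difference used to choose the genes. With the treatment means taken off, r was 0.19 (exact permutation within treatment, two-sided, p = 0.589) and rho was 0.34 (p = 0.314). In the ECP cows r was 0.74 (n = 6, exact permutation p = 0.0944) and rho was 0.77 (p = 0.103). In the CON cows r was -0.19 (n = 6, exact permutation p = 0.713) and rho was -0.09 (p = 0.919). The difference between these 2 values of r was not tested. Without E0819 and E0952, the cows farthest from the median HK2, r over the other 10 cows was 0.05. With 1 cow left out r ranged from 0.01 without C317 to 0.49 without 1814, and with the treatment by pregnancy means taken off it was 0.47, none of them past the test. In the ECP cows, C317 was lowest in both genes and E1010 and E0952 were highest in both, while in the CON cows 1814 had the highest HK2 and the second lowest GPI. These were among 12 relations computed, those with progesterone included, and after adjustment over them the lowest p was 0.567 for r and 0.40 for rho.

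**Figure D2:**
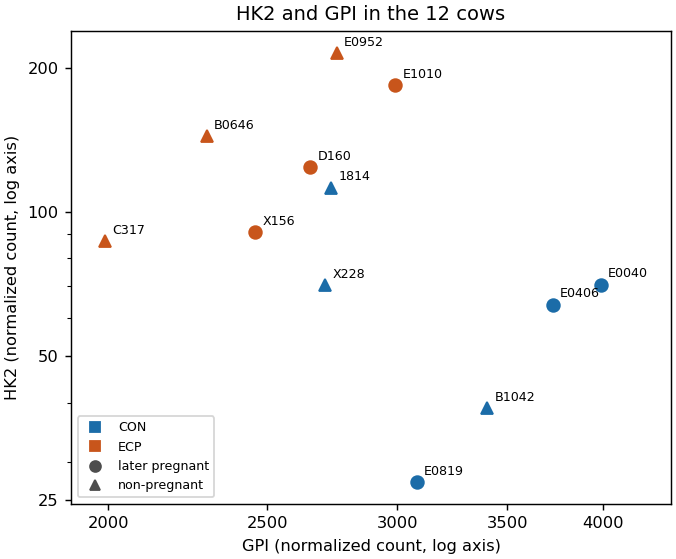
HK2 against GPI in the 12 cows, both as normalized counts on log axes, blue for CON and orange for ECP, circles for cows later pregnant. The ECP cows climb from C317 (86.9 and 1991) to E1010 and E0952, while the CON cows lie to the lower right, with 1814 and X228 nearest to the ECP cows.

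Later pregnancy was not used to choose the genes, so it could be tested. GPI had the higher mean in the cows later diagnosed pregnant in both treatments, and HK2 the lower. In CON, GPI was 3601 ± 467 in the pregnant and 2950 ± 393 in the non-pregnant cows, and in ECP it was 2702 ± 269 and 2348 ± 385 (SD, n = 3 each). HK2 was 53.9 ± 23.3 against 73.8 ± 36.9 in CON, and 132.9 ± 47.1 against 148.5 ± 64.1 in ECP. For HK2 the difference was within the SD in both treatments. With treatment in the model the log2 difference of pregnant over non-pregnant cows in GPI was 0.24 (95% interval 0.02 to 0.47, unadjusted p = 0.0368 and adjusted p = 0.9997 from edgeR), and GPI did not pass the test. With a cow left out it was lowest without C317, at 0.20 (95% interval -0.03 to 0.43, unadjusted p = 0.0859 from edgeR). It was highest without E0952, at 0.31 (unadjusted p = 0.0116 and adjusted p = 0.9995 from edgeR). For HK2 it was -0.30 (95% interval -0.998 to 0.39, adjusted p = 0.9997 from edgeR), and it ranged from -0.46 without E1010 to -0.10 without 1814. Among all 14814 genes edgeR called 0 (0%) in this comparison, with 481 at an unadjusted p under 0.05, and DESeq2 and limma voom also called 0.

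The quotient had the lower mean in the pregnant cows of both treatments, 14.6 ± 4.95 against 26.1 ± 14.8 in CON and 48.4 ± 12.3 against 61.4 ± 17.2 in ECP (SD, n = 3 each). The log2 difference was -0.53 (95% interval -1.35 to 0.29), and an exact permutation test within treatment, two-sided, gave p = 0.16, where the smallest p possible was 0.005. It was not larger than the spread between cows. Without B1042 the difference was -0.78 with an exact permutation p of 0.03, and without C317 it was -0.64 with a p of 0.09, so 1 non-pregnant cow of either group decided on which side of 0.10 the test lay.

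The difference between ECP and CON went the same way in both pregnancy classes. Among the cows later pregnant, HK2 was 2.46-fold higher in the ECP mean and every ECP cow (90.7 to 183.7) lay above every CON cow (27.3 to 70.5). Every ECP cow of this class (2459 to 2991) also lay below every CON cow (3083 to 3990.5) for GPI. Among the non-pregnant cows the fold for HK2 was 2.01, and 2 of 3 ECP cows lay above the CON cows in HK2 and 2 of 3 below them in GPI. These folds and ranges again describe the contrast that chose the genes. The share of all genes that were apart with 3 cows per group was not computed. The interaction of treatment and pregnancy, which the choice did not use, was 0.29 on the log2 scale for HK2 (95% interval -1.16 to 1.74, adjusted p = 0.983 from edgeR) and -0.08 for GPI (95% interval -0.55 to 0.40, adjusted p = 0.984 from edgeR). The intervals hold differences of over 2-fold for HK2. Of all genes edgeR called 0 (0%) here with 777 at an unadjusted p under 0.05, limma voom called 0, and DESeq2 called 13 (0.0878%).

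For both genes the means of ECP and CON differed in the same direction in both mapping classes. Both genes were chosen on the treatment difference. The share of all genes whose ranges lie apart with 3 cows per group was not computed, so the ranges are a description. For HK2 the ECP cows of the lower mapping libraries (86.9 to 183.7) lay above the CON cows (38.9 to 70.5), and in the higher mapping libraries the ECP cows (90.7 to 214.8) overlapped the CON cows (27.3 to 112.3). Of the CON cows there, only 1814 lay above the lowest ECP cow, X156. The means were 2.39-fold and 2.05-fold apart. For GPI in the lower mapping libraries, the CON cows had 3403 to 3990.5 and the ECP cows 1991 to 2991, with means of 3708 ± 295 and 2426 ± 512 (SD, n = 3 each). A fit of those libraries alone put the log2 fold change at -0.61 (standard error 0.17). In the higher mapping libraries the CON cows had 2713 to 3083 and the ECP cows 2459 to 2756, with means of 2843 ± 208 and 2624 ± 151, and the log2 fold change there was -0.12 (standard error 0.10). All 3 CON cows of the lower mapping libraries lay above all 3 CON cows of the higher mapping libraries in GPI, which was not tested. The same 3 cows had the highest progesterone of the CON cows, and 2 of them were later pregnant.

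**Figure D3:**
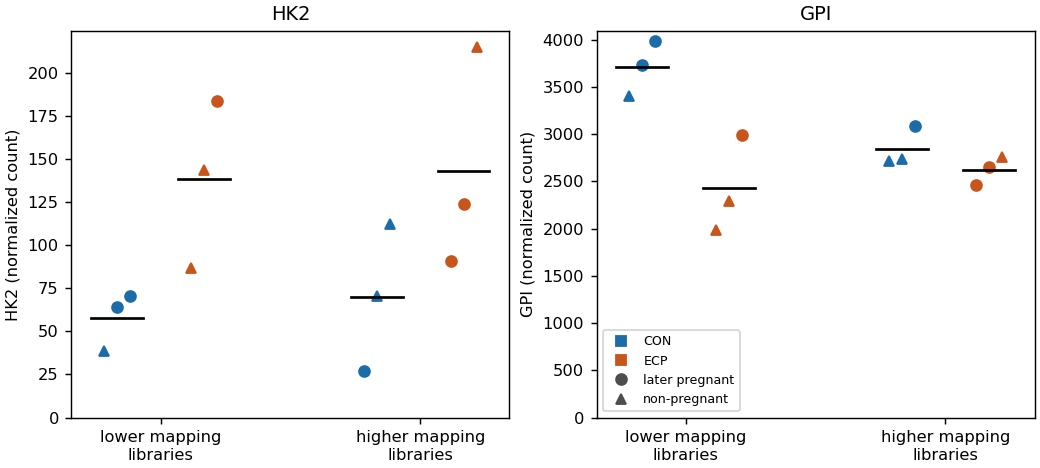
Normalized counts of HK2 (left) and GPI (right) by mapping class of the library, blue for CON and orange for ECP, 3 cows each, circles for cows later pregnant, with the mean as a black line. The GPI means of CON and ECP lie at 3708 and 2426 in the lower mapping libraries and at 2843 and 2624 in the higher mapping ones.

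The interaction of treatment and mapping class, a comparison added after these values were seen, was -0.50 on the log2 scale for GPI (95% interval -0.93 to -0.07, unadjusted p = 0.0265 and adjusted p = 0.481 from edgeR), which did not pass the test. For HK2 it was 0.22 (95% interval -1.28 to 1.72, adjusted p = 0.941 from edgeR), an interval that includes the GPI value. A difference between the genes was not tested. Of all genes edgeR and limma voom called 0 (0%), with 1439 in edgeR at an unadjusted p under 0.05, and DESeq2 called 177 (1.19%). Within each treatment pregnancy was not balanced over the classes. In the lower mapping libraries 2 CON cows and 1 ECP cow were later pregnant, and in the higher mapping libraries 1 CON cow and 2 ECP cows. With pregnancy status in the model the GPI interaction was -0.39 (95% interval -0.80 to 0.02, adjusted p = 0.71 from edgeR). Irrespective of treatment, lower over higher mapping libraries differed by 0.14 in GPI and -0.16 in HK2 on the log2 scale (adjusted p = 0.849 and 0.947 from edgeR, where edgeR called 0.00675% and DESeq2 0.722% of genes). The part of library quality in the GPI difference was not tested.

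Progesterone at the biopsy, as the labels give it, was 2.82 to 3.86 ng/mL in the CON cows and 3.05 to 4.73 ng/mL in the ECP cows, which had been selected for similar concentrations. Neither gene nor the quotient passed the test against it. With treatment in the model, the slope of log2 HK2 was -0.03 per ng/mL (95% interval -0.74 to 0.68, adjusted p = 0.996 from edgeR), and the Pearson r with the treatment means taken off was 0.03 (permutation within treatment, p = 0.912) and the Spearman rho was 0.08 (p = 0.806). The slope of log2 GPI was 0.17 per ng/mL (95% interval -0.10 to 0.44, adjusted p = 0.972 from edgeR), with an r of 0.39 (permutation p = 0.224) and a rho of 0.47 (p = 0.145). With a cow left out the GPI slope ranged from 0.095 without C317 to 0.33 without B0646 (unadjusted p = 0.0339 and adjusted p = 0.998 from edgeR), and r from 0.22 to 0.65 without the same cows (permutation p = 0.0403 and adjusted p = 0.233 for the latter). The GPI slope was 0.13 with mapping class in the model (unadjusted p = 0.412 from edgeR). With pregnancy status in the model it was 0.086 (unadjusted p = 0.479 from edgeR). For the quotient r was -0.10 (permutation p = 0.729) and rho was -0.02 (p = 0.957). Without X228 and B0646, which had the lowest and the highest progesterone, r was 0.11 for HK2, 0.55 for GPI and -0.07 for the quotient (n = 10). Of all genes edgeR and limma voom called 0 (0%) for the slope, with 695 at an unadjusted p under 0.05 in edgeR, and DESeq2 called 11 (0.0743%).

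Within the treatments the relation of GPI to progesterone was also computed for each group of 6. In CON, r was 0.78 (n = 6, exact permutation p = 0.0514) and rho was 0.89 (exact permutation p = 0.0333), and the adjusted values over the 12 relations were 0.567 and 0.40. In ECP, r was 0.14 (n = 6, exact permutation p = 0.804) and rho was 0.03 (p = 1). The difference between the groups was not tested. The 3 CON cows with the highest progesterone (3.79 to 3.86 ng/mL) were also those with lower mapping libraries, so among the CON cows progesterone and mapping class cannot be told apart. HK2 had an r of 0.01 in CON (exact permutation p = 0.982) and 0.06 in ECP (exact permutation p = 0.883).

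**Figure D4:**
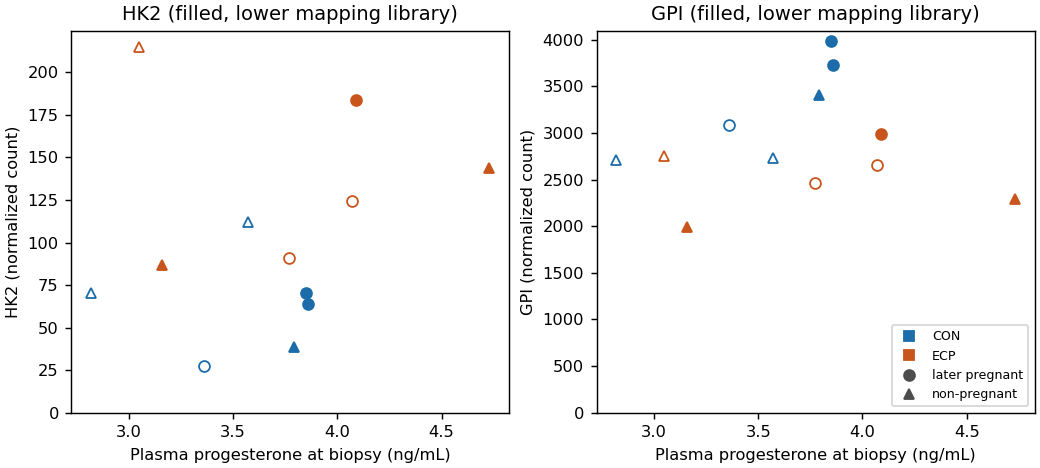
Normalized counts of HK2 (left) and GPI (right) against progesterone at the biopsy in ng/mL, blue for CON and orange for ECP, circles for cows later pregnant, filled symbols for lower mapping libraries. The 3 CON cows with the highest GPI (3403 to 3990.5) stand together at 3.79 to 3.86 ng/mL and are all lower mapping libraries.

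The other enzymes of glycolysis could not be followed. Symbols are available only for the gene IDs that the study lists, and of the 24 glycolysis genes prepared for this tissue these 2 alone were matched, while no gene of glucose transport and glycogen, of the pentose phosphate and hexosamine branches, or of the epithelial, stromal, smooth muscle, endothelial and erythrocyte markers was. The tissue label could thus not be checked by marker names. Of the 17 genes of pyruvate entry, the citric acid cycle and respiration 4 were matched. IDH3B is a subunit of the NAD-dependent isocitrate dehydrogenase, NDUFB3 a subunit of complex I, and the products of ATP5F1 and ATP5J belong to ATP synthase. All 4 had the lower mean in ECP, as GPI did, and all were listed by the study for that contrast. With the treatment means taken off, the Pearson r with GPI over the 12 cows was 0.68 for IDH3B, 0.48 for ATP5J, 0.46 for NDUFB3 and 0.04 for ATP5F1. With HK2 it was 0.53 for ATP5F1, 0.39 for NDUFB3, 0.26 for IDH3B and 0.09 for ATP5J. These are descriptions over the same libraries, and the median r of all 14813 other genes was 0.0016 with HK2 and -0.0076 with GPI.

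MYL3, a myosin light chain of heart and slow skeletal muscle, was the named gene whose cow to cow pattern was most like that of HK2, although its treatment difference went the other way. Likeness was the Pearson r of log2 normalized counts over the 12 cows with the treatment means taken off, and it was 0.83, the rank 4 among 14813 genes. It was 0.81 in the CON cows and 0.88 in the ECP cows, and with a cow left out it ranged from 0.77 to 0.87. MYL3 was 10.7 normalized counts in E0819, 18.6 in E0406, 19.0 in B1042, 25.9 in E0040, 38.1 in 1814 and 52.7 in X228 of the CON group. In the ECP group it was 1.76 in C317, 4.63 in X156, 4.89 in B0646, 5.68 in D160, 10.5 in E0952 and 12.5 in E1010. E0819 was thus lowest of CON in both genes, C317 lowest of ECP in both, and E1010 and E0952 the 2 highest of ECP in both, while the means of MYL3 were 27.5 ± 15.4 in CON and 6.67 ± 4.04 in ECP (SD, n = 6 each). Over the cows as they are, r was -0.22. MYL3 had 2 to 48 raw counts per cow, with 2 to 10 in the ECP cows. It was picked as the highest of 121 named genes, all from the study's list for ECP against CON. Its r values are therefore a description. MYL3 is not on the prepared list of smooth muscle markers, none of which could be matched. The part of muscle tissue in the biopsies was not tested.

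**Figure D5:**
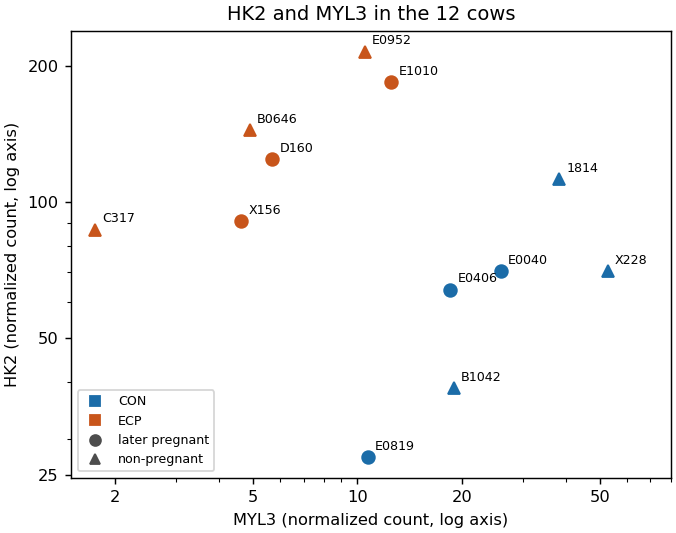
HK2 against MYL3 in the 12 cows, both as normalized counts on log axes, blue for CON and orange for ECP, circles for cows later pregnant. Within each treatment the cows climb together, from E0819 in CON and from C317 in ECP, while the ECP cows as a group lie to the upper left with MYL3 of 1.76 to 12.5.

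The next named genes most like HK2 were ENSBTAG00000017473 (r = 0.60), for which the study lists a cluster number as its symbol, and EIF2C4 (r = 0.53), an Argonaute protein of small RNA silencing. Those least like it were SNRPD2 (r = -0.55), a Sm protein of the spliceosome, ST8SIA4 (r = -0.44), a polysialyltransferase, and HIRIP3 (r = -0.41). For GPI the most alike were MRPS31 (r = 0.77), a protein of the mitochondrial ribosome, C18H19orf33 (r = 0.76) and TGDS (r = 0.72). Those least like it were ZUFSP (r = -0.72), C25H16orf91 (r = -0.70) and RPL22 (r = -0.69), a protein of the large ribosomal subunit. Among all genes, r with HK2 was above 0.8 for 12 and below -0.8 for 15, and r with GPI was above 0.8 for 63 and below -0.8 for 22. The r of 0.19 between GPI and HK2 was higher than that of 72.2% of the genes with HK2.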

How the data were processed

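Endometrial RNA of 12 cows was sequenced. The values are raw, unnormalized read counts per gene deposited by the authors, who aligned trimmed reads to a masked UMD 3.1 genome. The submitters' processing notes name Bowtie2 2.1.0, SAMtools 0.1.18 and HTSeq 0.5.4p2. Only uniquely mapped reads were used per the paper, which lowers counts of genes with near-identical copies, and use of strand in counting was not given in the sources used here. Total counts were 8637917 to 15015055 per cow, and intervals on counts cover counting error only.

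From these counts, genes whose mean normalized count exceeded both 5 and the standard deviation over cows were fitted in edgeR 4.0.16 (R 4.3.3, TMM, quasi-likelihood, Benjamini-Hochberg threshold 0.10 as in the study). Standard errors were taken from the log2 fold change and its F statistic, with t intervals. Correlations used log2 of normalized counts plus 1, and exact permutation within treatment (Python 3.11.15, scipy 1.17.1). DESeq2 1.42.0, limma 3.58.1, other scalings, filters, pseudocounts, covariates, mapping classes and each cow left out were alternatives. On simulated counts of 14703 genes, with 50 genes changed at each fold between pregnancy classes, edgeR recovered 23 at 1.5-fold and 37 at 2-fold, with 12 false among 165 calls. The 200 changed genes were drawn at random, so these rates are not the power for HK2 or GPI.

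Named genes were HK2, GPI, matched members of the prepared lists, and the 3 named genes most and least like each over the 12 cows. The leukocyte list matched 3 of 7 genes. Under the minimum of 80% matched, no list was tested. The members and lists were chosen with earlier results of these data known. Gene names came from the study's supplementary table, whose fold changes and p-values were not used.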

Additional observations from a re-analysis of the deposited data

How the results depend on the processing

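HK2 kept its higher and GPI its lower mean in ECP under every scaling, filter, tool and covariate tried and with each cow left out. The HK2:GPI quotient, recomputed with other pseudocounts, from CPM, within each mapping class and with each cow left out, kept its higher mean in ECP. All of these refit the contrast that chose the genes, on the same libraries, so they are no test of its direction. The fold change of GPI was -0.61 in the lower and -0.12 in the higher mapping libraries alone. No tested value of HK2 or GPI passed the threshold after adjustment under any alternative. Some values changed sign, and each of those from a fit was smaller in size than its standard error. The HK2 slope on progesterone became 0.072 with limma voom, 0.087 with mapping class and 0.11 with pregnancy status (added after seeing the data) in the model, and -0.20 to 0.34 with a cow left out. With a cow left out, the treatment by pregnancy interaction was -0.14 to 0.65 for HK2 and -0.19 to 0.053 for GPI, the HK2 difference between mapping classes -0.32 to 0.075, its treatment by mapping class interaction -0.30 to 0.63, the r of HK2 with progesterone -0.13 to 0.28 and that of the quotient -0.23 to 0.060. The last was 0.055 with the treatment by pregnancy means taken off. The pregnancy difference of the quotient was -0.78 to -0.32, and passed 0.10 without B1042 or C317. The cause was not tested.

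Counts of genes called depended on the tool and cows. DESeq2 called 103 for ECP against CON, 13 for the pregnancy interaction, 11 for progesterone, 107 between mapping classes and 177 for the mapping class interaction, where edgeR called 0, 0, 0, 1 and 0. In the higher mapping libraries alone edgeR called 54 for ECP. The 1 gene between mapping classes became 0 at a threshold of 0.05, with upper quartile scaling, filterByExpr, limma voom or pregnancy status in the model. With a cow left out edgeR called 0 to 1 for the pregnancy interaction, 0 to 1 for progesterone, 0 to 3 between mapping classes and 0 to 55 for the mapping class interaction. No paired analysis was made, because each library came from a different cow and the labels pair no cows. Of the 12 checks for a cow standing apart from its group of 6, 0 found one.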

Other observations

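The gene IDs most and least like the 2 genes over all 14813 others carry no symbol here. With the treatment means taken off, ENSBTAG00000020984 had an r of 0.88 with HK2 and means of 82.1 ± 26.8 normalized counts in CON and 76.8 ± 17.3 in ECP (SD, n = 6 each), so it followed HK2 from cow to cow with nearly equal means of the treatments. ENSBTAG00000013941 had an r of -0.91 with HK2, of -0.88 in the CON and -0.95 in the ECP cows, and means of 251 ± 54.3 and 242 ± 44.2.

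ENSBTAG00000017267 had an r of 0.95 with GPI and ranged from 1623 to 2469 normalized counts in CON and from 1265 to 1759 in ECP. ENSBTAG00000020253 had an r of -0.88 with GPI. These were picked as the extremes of all genes, so their r is a description of these 12 libraries.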
